A study of Mus musculus with 6 samples.

Results

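The receptors for calcitonin gene-related peptide (CGRP) and adrenomedullin are assembled from a membrane receptor and a small partner protein, and the genes for these parts were followed in mouse dorsal root ganglia. They are the 6 genes Calcrl, Calcr, Ramp1, Ramp2, Ramp3 and Crcp, found by gene name among the 54532 genes of the count table. Each name matched 1 entry. Bulk RNA-seq libraries came from mice heterozygous at Ash1l (Ash1l+/-), a gene for a histone methyltransferase, and from wild-type (WT) littermates, with 3 libraries per genotype. Age, sex, treatment and the structure of the Ash1l allele are not among the labels, and neither is whether an animal gave 1 library or several. The p-values measure only how far these samples spread, and part of that may be technical. Of the 6 genes 5 had enough reads to be tested, and Calcr did not.

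CGRP is a vasodilator peptide released by peptidergic sensory neurons, and it is the target of several migraine drugs. The calcitonin receptor-like receptor, encoded by Calcrl, cannot reach the cell surface as a working receptor without a receptor activity modifying protein (RAMP). With RAMP1 it binds CGRP, and with RAMP2 or RAMP3 it binds adrenomedullin. The calcitonin receptor, encoded by Calcr, works alone for calcitonin and pairs with RAMPs to form amylin receptors. Crcp encodes the receptor component protein, a cytosolic protein that couples the CGRP receptor to its signal and is also a subunit of RNA polymerase III. In ganglia, Calcrl and Ramp2 are known above all from endothelium, and Ramp1 from neurons and vessel walls.

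The start-site sequences of 3 genes are shown. Ramp3 was lower and Calcrl higher in every Ash1l+/- library than in every WT library, while Ramp1 overlapped. Of all genes tested, 19.3% lay wholly higher in Ash1l+/- and 19.2% wholly lower. Ramp2 and Crcp did not overlap either, but the source used held no sequence for them. Calcr, which had too few reads to be tested, is left out. Each sequence shown runs from 250 bases before to 50 bases after the RefSeq start, on the gene's own strand of GRCm38.p6. Capitals mark the GC box GGGCGG and the cAMP response core TGACG, read on both strands, and no 2 matches overlapped. The full cAMP response element TGACGTCA, which contains that core, the hypoxia response core ACGTG and the TATA box TATAAA were searched on both strands as well.
Ramp3, chr11:6658283-6658582, plus strand: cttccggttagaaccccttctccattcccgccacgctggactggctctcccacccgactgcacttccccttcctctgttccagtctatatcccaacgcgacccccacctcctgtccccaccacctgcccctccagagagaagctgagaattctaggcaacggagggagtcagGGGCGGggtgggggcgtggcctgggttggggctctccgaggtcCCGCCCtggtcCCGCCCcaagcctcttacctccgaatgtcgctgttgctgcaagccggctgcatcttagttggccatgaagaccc
Calcrl, chr2:84425217-84425516, minus strand: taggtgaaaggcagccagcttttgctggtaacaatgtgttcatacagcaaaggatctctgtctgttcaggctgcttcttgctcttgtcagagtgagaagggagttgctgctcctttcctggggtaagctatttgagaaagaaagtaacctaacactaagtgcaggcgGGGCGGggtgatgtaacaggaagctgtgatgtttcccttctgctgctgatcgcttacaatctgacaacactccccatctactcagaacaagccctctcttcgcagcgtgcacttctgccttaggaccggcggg
Ramp1, chr1:91179572-91179871, plus strand: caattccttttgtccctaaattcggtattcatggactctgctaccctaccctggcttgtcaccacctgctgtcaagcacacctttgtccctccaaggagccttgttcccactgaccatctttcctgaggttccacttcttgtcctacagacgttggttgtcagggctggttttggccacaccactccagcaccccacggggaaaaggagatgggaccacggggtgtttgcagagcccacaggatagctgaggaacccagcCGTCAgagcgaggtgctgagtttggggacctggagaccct
The Ramp3 window held 3 GC boxes, whose first bases lay at -78, -35 and -24 from the start. The Calcrl window held 1, at -83, and the Ramp1 window held none. A GC box was found in 35.9% of the 32544 mouse promoter windows of that length. The Ramp1 window held 1 cAMP response core, at 11 after the start, a motif found in 20.9% of windows. TGACGTCA, ACGTG and TATAAA, found in 1.8%, 19.7% and 13.6% of windows, were in none of the 3. The GC content was 63.7% for Ramp3, 50.7% for Calcrl and 55.7% for Ramp1. These matches describe letters only, and no binding was measured.

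The libraries held between 17209294 and 20545722 counts. WT replicate 2 stood apart, with log2 CPM correlations across genes of 0.846 to 0.877 with the other libraries, which correlated with each other at 0.981 to 0.992. Levels in CPM are read counts scaled to library size with TMM (trimmed mean of M-values) factors. Summed CPM of skeletal muscle markers was 39.4 in WT replicate 2 against 2.62 to 4.72 elsewhere, and of erythrocyte markers 628 against 31.5 to 102. The erythrocyte markers Alas2 and Slc4a1, at 1.34 and 0.523 CPM there, were within the range of the other libraries. Genes of other kinds departed in both directions. Adcy3 had 0 reads in WT replicate 2 against 233 to 377 elsewhere, and Uchl1 was at 14200 CPM against 2260 to 2850. What set this library apart was not tested. Sensory neuron markers were present in all libraries, at a summed 12400 to 26800 CPM, and none of the 10 was at 0. Ash1l itself was at 66.5, 66.5 and 68.9 CPM in the Ash1l+/- libraries, against 60.9, 30.9 and 54.4 in WT (log2 fold change 0.46, SE 0.27, edgeR adjusted p = 0.396), and without WT replicate 2 the difference was 0.22 (SE 0.08, adjusted p = 0.0593), so its counts do not check the labels. Directions rest on the labels, and fold changes of the components are given with all 6 libraries and with the 5 that remain without WT replicate 2.

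Per unit length, the receptor components spanned a wide range. The deposited FPKM, which divide reads by gene length and library size, averaged 31.1 in Ash1l+/- and 27.7 in WT for Crcp, above 86.7% of tested protein-coding genes. Ramp2 came next, at 3.59 to 3.99 FPKM in Ash1l+/- and 4.62 to 10.2 in WT. Ramp1 had the lowest mean of the tested components in both genotypes, at 0.2 to 0.296 FPKM in Ash1l+/- and 0.158 to 1.08 in WT. Only 7.79% of tested protein-coding genes had a lower mean FPKM than Ramp1. Between them lay Calcrl and Ramp3, in a different order in each genotype. Calcrl stood above Ramp3 in each Ash1l+/- library, at 1.41 to 1.6 against 0.495 to 0.755 FPKM. In the WT libraries Ramp3 stood above Calcrl, at 1.43 to 6.13 against 0.557 to 1.22 FPKM. Within Ash1l+/- no pair of neighbours in the order overlapped, whereas in WT the ranges of Ramp2 and Ramp3 overlapped, as did those of Calcrl and Ramp1.

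**Figure D1:**
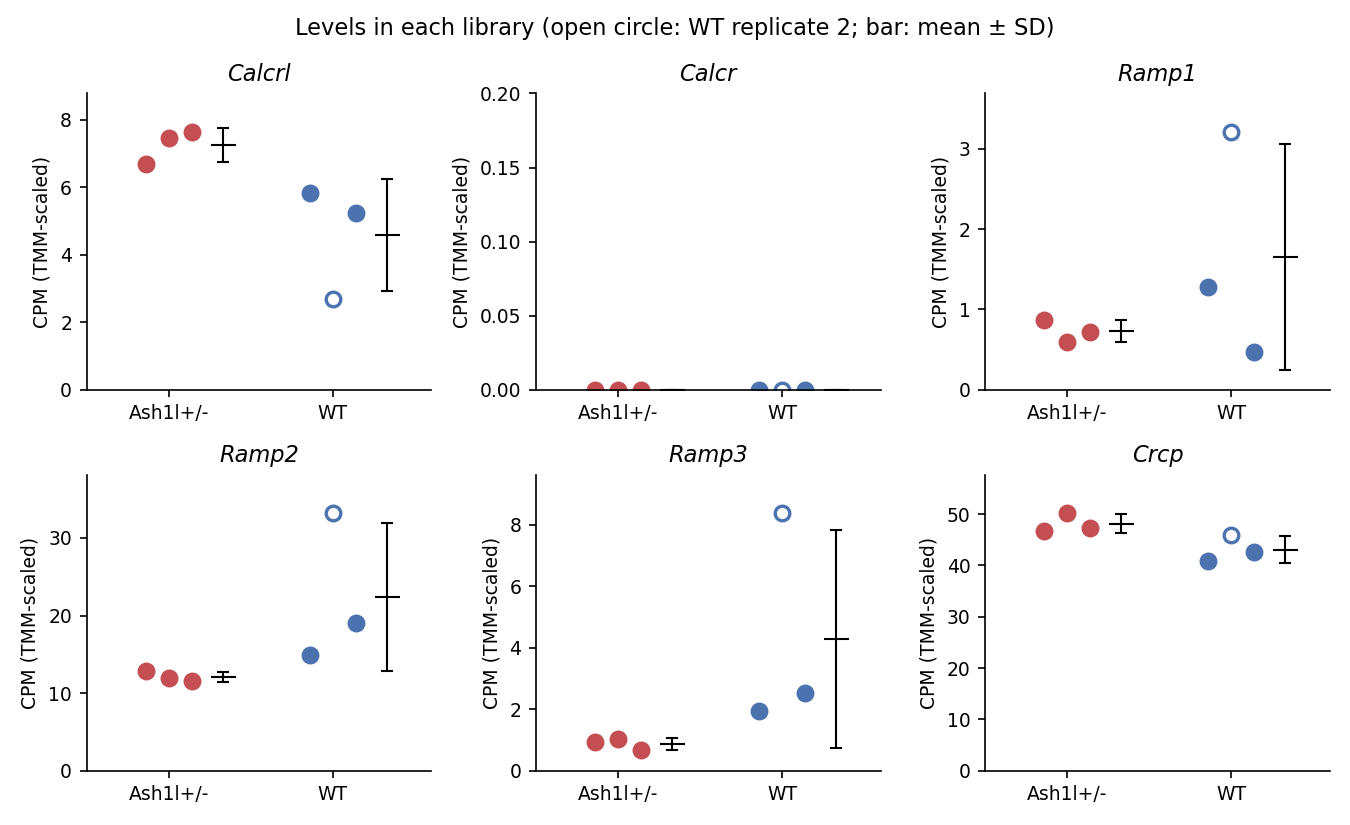
TMM-scaled CPM (vertical axes, from 0) of the 6 receptor component genes in the 3 Ash1l+/- and 3 WT libraries, 1 point per library, with the mean ± SD beside each group and WT replicate 2 as an open circle. Ramp2 and Ramp3 are lower and Calcrl and Crcp higher in every Ash1l+/- library than in every WT library, Ramp1 overlaps, and Calcr is at 0 throughout. Of all genes tested, 19.3% lie wholly higher and 19.2% wholly lower in Ash1l+/-.

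Calcrl, the receptor that carries both peptides' signals (ENSMUSG00000059588, GRCm38 chromosome 2, 84330626 to 84425411, minus strand), was at 6.68, 7.46 and 7.63 CPM in Ash1l+/- replicates 1, 2 and 3. It was at 5.83, 2.69 and 5.24 CPM in WT replicates 1, 2 and 3. Every Ash1l+/- library lay above every WT library, and WT replicate 2 was the lowest. The means were 7.26 ± 0.502 CPM in Ash1l+/- and 4.58 ± 1.67 CPM in WT (SD, n = 3 each). Among all genes tested in the 6 libraries, 19.3% had Ash1l+/- wholly above WT and 19.2% wholly below. The log2 fold change, Ash1l+/- over WT, was 0.65 (SE 0.32, adjusted p = 0.385, quasi-likelihood test of edgeR). Without WT replicate 2 it was 0.39 (SE 0.17, adjusted p = 0.117). Calcrl therefore did not pass in either comparison.

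Calcrl has one of the most AT-rich transcripts of the ganglion, with a GC share of 37.8% that lies at the 2.2 percentile of genes with at least 60 reads. Removing each library's trends on GC content and gene length left 7.04% of all genes called with 5 libraries, in place of 19.8%. With these trends removed, the Calcrl log2 fold change was 0.11 (SE 0.16, edgeR adjusted p = 0.746) over the 5 libraries and 0.20 (SE 0.18, adjusted p = 0.61) over 6. The Ramp2 and Ramp3 transcripts lie at the other side, with GC shares of 56.7% and 55.4%, at the 85.8 and 79.7 percentiles.

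Calcr, the calcitonin receptor (ENSMUSG00000023964, chromosome 6, 3685680 to 3764714, minus strand), had 0 reads in all 6 libraries. A count of 0 allows up to 3 reads, or 0.137 to 0.167 CPM in Ash1l+/- libraries and 0.148 to 0.224 CPM in WT libraries. On the FPKM scale that limit was 0.0361 to 0.0436 in Ash1l+/- libraries and 0.0387 to 0.0579 in WT libraries, for counting error only. The lowest FPKM of any other component in any library was 0.158, for Ramp1. Mir653 and Mir489, microRNA genes inside Calcr, were also listed with 0 reads. The amylin peptide gene Iapp likewise had 0 reads in all 6 libraries.

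Ramp1, the partner that makes Calcrl a CGRP receptor (ENSMUSG00000034353, chromosome 1, 91179822 to 91225196, plus strand), was at 0.87, 0.59 and 0.724 CPM in Ash1l+/- replicates 1, 2 and 3. WT replicates 1, 2 and 3 had 1.28, 3.21 and 0.467 CPM. The WT libraries included both the highest and the lowest value, so the groups overlapped. These levels rested on 11 to 19 reads per Ash1l+/- library and on 26, 43 and 9 reads in WT. The exact 95% Poisson interval of WT replicate 3 alone ran from 0.213 to 0.886 CPM, which holds all Ash1l+/- values, and covers counting error only. The log2 fold change was -1.15 (SE 0.70, edgeR adjusted p = 0.405) with 6 libraries and -0.26 (SE 0.49, adjusted p = 0.748) with 5. Ramp1 passed in neither. The interval of WT replicate 2, 2.33 to 4.33 CPM, did not reach that of WT replicate 3, so the WT libraries differed by more than counting error.

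Ramp2, the partner for adrenomedullin in vessels (ENSMUSG00000001240, chromosome 11, 101246028 to 101259546, plus strand), was at 12.8, 11.9 and 11.6 CPM in Ash1l+/- replicates 1, 2 and 3. WT replicates 1, 2 and 3 were at 14.9, 33.2 and 19.1 CPM. No Ash1l+/- library reached the lowest WT library, as in 19.2% of all genes tested, and WT replicate 2 was the highest. Ramp2 averaged 12.1 ± 0.651 CPM in Ash1l+/- and 22.4 ± 9.6 CPM in WT (SD, n = 3 each). In the fit of all 6 it differed by -0.89 on the log2 scale (SE 0.32, edgeR adjusted p = 0.385, unadjusted 0.0294). With 5 libraries Ramp2 fell to 0.712 of its WT level, which is -0.49 on the log2 scale (SE 0.13, edgeR adjusted p = 0.0151). DESeq2 and limma-voom also called it over these 5 libraries, with adjusted p of 0.019 and 0.0188.

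That call had limits. With GC and length trends removed the log2 fold change of Ramp2 over 5 libraries was -0.25 (SE 0.13, edgeR adjusted p = 0.29), and leaving out WT replicate 3 as well gave -0.31 (adjusted p = 0.238). Counts of Ramp2 are also uncertain because 1103 bases of its exons are shared with Vps25, a gene of the endosomal sorting machinery on the same strand whose exons span 1642 bases. Vps25 had 17, 25 and 16 reads in Ash1l+/- libraries and 12, 3 and 20 in WT. The sources used here do not say how reads over shared bases were assigned, so the FPKM of Ramp2, set by its full length of 3301 bases, is uncertain too.

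Ramp3, the other adrenomedullin partner (ENSMUSG00000041046, chromosome 11, 6658521 to 6677475, plus strand), showed the largest difference of the set. It was at 0.916, 1.02 and 0.668 CPM in Ash1l+/- replicates 1, 2 and 3, against 1.93, 8.37 and 2.54 CPM in WT replicates 1, 2 and 3. Ash1l+/- lay wholly below WT, as in 19.2% of all genes tested, and WT replicate 2 lay far above the other wild types. Ramp3 averaged 0.868 ± 0.181 CPM in Ash1l+/- and 4.28 ± 3.56 CPM in WT (SD, n = 3 each). Reads numbered 20, 19 and 12 in the Ash1l+/- libraries, against 39, 112 and 49 in WT. Exact 95% Poisson intervals reached 1.41, 1.59 and 1.17 CPM at the upper end in Ash1l+/-, while those of WT replicates 1 and 3 began at 1.37 and 1.88 CPM. Counting error alone thus left Ash1l+/- replicates 1 and 2 in reach of WT replicate 1, and all of them below WT replicate 3.

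Over the 6 libraries the log2 fold change of Ramp3 was -2.28 (SE 0.64, edgeR adjusted p = 0.385, unadjusted 0.0112). With 5 libraries Ramp3 fell to 0.393 of the WT level, a log2 fold change of -1.35 (SE 0.35, edgeR adjusted p = 0.0109). By limma-voom it differed by -1.33 on the log2 scale (SE 0.35, adjusted p = 0.0119). In DESeq2 the log2 fold change over the 6 libraries was -2.31 (adjusted p = 0.116). Over the 5 libraries it was -1.35 (unadjusted p = 0.00311), and DESeq2 set no adjusted p for this gene there. With trends removed its log2 fold change was -1.13 (SE 0.34) and the edgeR adjusted p 0.0541, which missed the threshold. The call was also lost without WT replicate 1 (-1.54, adjusted p = 0.0534) or WT replicate 3 (-1.15, adjusted p = 0.125), where a single WT library was assumed to vary like the Ash1l+/- group. A processed pseudogene on the opposite strand, Gm11978, shares 101 exon bases with Ramp3 and had 0 reads in all libraries, although the kit named does not mark strand.

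Crcp (ENSMUSG00000025532, chromosome 5, 130029290 to 130060789, plus strand) was the most abundant component and the steadiest. It was at 46.8, 50.2 and 47.3 CPM in Ash1l+/- replicates 1, 2 and 3, against 40.8, 45.9 and 42.6 CPM in WT replicates 1, 2 and 3. Ash1l+/- libraries lay above WT libraries, as in 19.3% of all genes tested, with 46.8 CPM against 45.9 CPM at the nearest pair. Averages were 48.1 ± 1.83 CPM in Ash1l+/- and 43.1 ± 2.57 CPM in WT (SD, n = 3 each). Here WT replicate 2 lay close to the other wild types, 0.14 above their mean on the log2 scale. Its departure from them in the same measure was 1.88 for Ramp1, 0.97 for Ramp2, 1.91 for Ramp3 and -1.04 for Calcrl. The log2 fold change of Crcp was 0.16 (SE 0.13, edgeR adjusted p = 0.507) with 6 libraries and 0.21 (SE 0.09, adjusted p = 0.1) with 5. It passed over the 5 libraries with GC and length trends removed, at 0.28 (SE 0.07, adjusted p = 0.0304), and did not pass over 6 with the same removal (0.39, SE 0.15, adjusted p = 0.557).

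**Figure D2:**
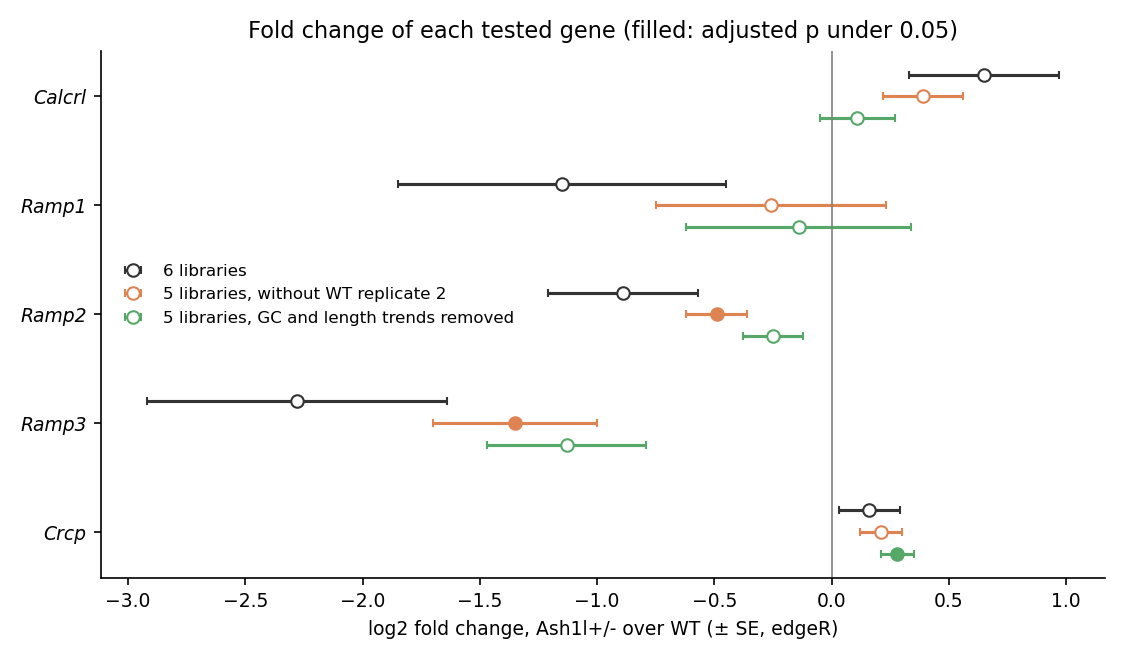
Log2 fold change, Ash1l+/- over WT, with its SE (horizontal axis) for the 5 tested genes in 3 edgeR analyses, filled where the adjusted p is under 0.05. Ramp2 and Ramp3 are filled only for the 5 libraries without WT replicate 2, at -0.49 and -1.35, and Crcp only with GC and length trends removed, at 0.28.

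Counted together, 0 of the 5 tested components passed in edgeR with 6 libraries, where 0.0% of 16032 genes passed. At an unadjusted p of 0.05, Ramp2 and Ramp3 passed, as did 10.6% of all genes. DESeq2 called 0 of the 5 with 6 libraries, where it called 0.218% of all genes, 0.0686% higher and 0.15% lower. limma-voom called 0 as well.

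With 5 libraries edgeR called 2 of the 5 components, both lower, where 19.8% of 16395 genes were called, 9.39% higher and 10.4% lower. DESeq2 called 1, Ramp2, lower, where it called 17.9% of genes, 8.73% higher and 9.16% lower. limma-voom called Ramp2 and Ramp3 lower, where it called 19.5% of genes, 8.99% higher and 10.5% lower. With trends removed edgeR called 1, Crcp, higher, where 7.04% of genes were called, 2.63% higher and 4.41% lower. Of the 5 components 4 did not overlap between genotypes, with 6 libraries and with 5. In the 6 libraries 19.3% of all genes had Ash1l+/- wholly above WT and 19.2% wholly below. In the 5 libraries these shares were 23.9% and 25.3%.

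The balance among the RAMPs within a library needs no scaling between libraries. As a share of the summed FPKM of the 3 RAMPs, Ramp3 made up 13.7%, 16.3% and 11.4% in Ash1l+/- replicates 1, 2 and 3, against 22.0%, 35.3% and 23.6% in WT replicates 1, 2 and 3. Ramp2 made up 80.3%, 79.4% and 82.9% in Ash1l+/-, against 71.3%, 58.6% and 74.4% in WT. Ramp1 stayed a small part, at 5.95%, 4.31% and 5.66% in Ash1l+/-, against 6.7%, 6.18% and 1.98% in WT. The Ramp3 share was lower and the Ramp2 share higher in every Ash1l+/- library.

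The mean Ramp3 share was 13.8 ± 2.44% in Ash1l+/- and 27.0 ± 7.22% in WT (SD, n = 3 each), a difference of -13.1 percentage points. The Ramp2 share was 80.9 ± 1.83% in Ash1l+/- and 68.1 ± 8.39% in WT, a difference of 12.8 points. In two-sided exact permutation tests p was 0.1 for each, the smallest that 3 libraries against 3 can give, and 0.15 after adjustment over the 3 shares. For Ramp1, at 5.31 ± 0.874% in Ash1l+/- and 4.96 ± 2.59% in WT, the exact permutation p was 1.0. Without WT replicate 2 the differences were -9.0 points for Ramp3 and 8.03 points for Ramp2, again at the smallest possible exact p of 0.1. With 1 FPKM added to each gene the differences were -7.45 points for Ramp3 and 3.08 points for Ramp2 (exact p = 0.1 and 0.4), and by reads in place of FPKM -7.26 and 7.41 points. With the length of Ramp2 cut to the exons it does not share with Vps25, its share was 85.2% to 87.9% in Ash1l+/- and 68.0% to 81.4% in WT.

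**Figure D3:**
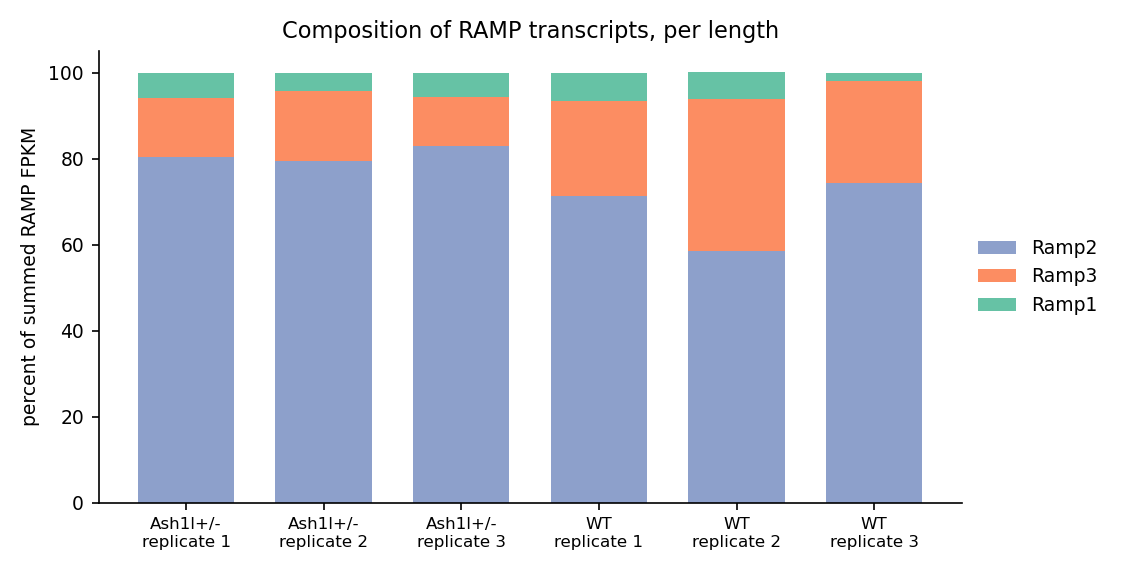
Percent of the summed FPKM of the 3 RAMP genes (vertical axis, from 0) in each library, stacked as Ramp2, Ramp3 and Ramp1. The Ramp3 layer is 11.4% to 16.3% in the Ash1l+/- libraries and 22.0% to 35.3% in the WT libraries.

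Each RAMP was also set against Calcrl, the receptor it pairs with. Ramp3 amounted to 0.485, 0.484 and 0.310 of the Calcrl FPKM in Ash1l+/- replicates 1, 2 and 3, and to 1.17, 11.0 and 1.72 times it in WT replicates 1, 2 and 3. For Ramp2 the ratios were 2.84, 2.35 and 2.25 in Ash1l+/-, against 3.79, 18.3 and 5.40 in WT. Both ratios were lower in every Ash1l+/- library than in any WT library. That follows from the levels given above, since Ramp2 and Ramp3 were lower and Calcrl higher in every Ash1l+/- library. It is not a separate result. The Ramp1 ratios were 0.210, 0.128 and 0.153 in Ash1l+/-, against 0.356, 1.93 and 0.144 in WT, and overlapped. The summed RAMPs stood at 3.53, 2.96 and 2.71 times Calcrl in Ash1l+/-, against 5.31, 31.2 and 7.26 times in WT. These ratios set GC-rich transcripts over an AT-rich one, and no test was run on them.

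**Figure D4:**
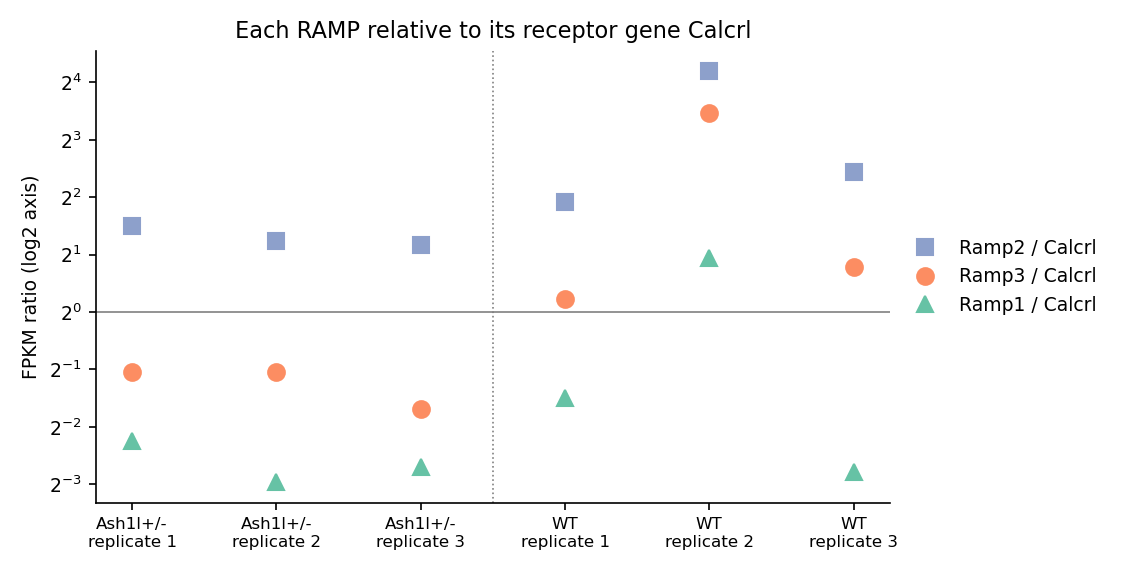
Ratio of each RAMP's FPKM to that of Calcrl (vertical axis, log2 scale) in each library, with the line at 1 marking equal FPKM. Ramp3 lies below the line in the 3 Ash1l+/- libraries and above it in the 3 WT libraries, and WT replicate 2 has the highest ratio for each RAMP.

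In whole ganglia, fewer cells of a type and less RNA per cell cannot be told apart. Blood endothelium, the main known site of Calcrl and Ramp2, was followed by 10 markers, none of them at 0 in any library. Their summed level was 167 to 188 CPM in Ash1l+/- libraries and 175 to 455 CPM in WT, with 455 in WT replicate 2 alone. There Cldn5 made up 197 CPM and Egfl7 124 CPM of the sum. In the same library Cdh5, at 4.18 CPM, and Flt1, at 19.4 CPM, were at their lowest. The median log2 difference of the 10 markers in WT replicate 2 from WT replicates 1 and 3 was -0.04. With 6 libraries edgeR called 0 markers in each of the 12 marker lists. Over the 5 libraries, where 9.39% of all genes were called higher and 10.4% lower, 1 of the 10 was called, Flt1, a receptor for vascular growth factors, with a log2 fold change of 0.40 in edgeR (adjusted p = 0.00709) and of 0.57 with 6 libraries. The median of the list was -0.05 with 5 libraries. Pericyte and smooth muscle markers summed to 293 to 347 CPM in Ash1l+/- and 151 to 296 CPM in WT, with 1 of 10 called, higher, and none at 0. That marker, Rgs5, alone made up 212 to 261 CPM in Ash1l+/- and 49.3 to 215 CPM in WT. The median log2 fold change of the list was -0.04 with 5 libraries. Among 8 fibroblast markers 4 were called lower and 1 higher, at summed levels of 1180 to 1380 CPM in Ash1l+/- and 1310 to 2000 CPM in WT, with none at 0. The marker called higher, Apod, alone made up 510 to 667 CPM in Ash1l+/- and 474 to 1410 CPM in WT, with 1410 in WT replicate 2. Lymphatic endothelium markers summed to 65.7 to 76.8 CPM in Ash1l+/- and 52.5 to 64.2 CPM in WT, of which Reln alone made up 60.8 to 69.2 CPM in Ash1l+/- and 50.7 to 59.0 CPM in WT. Of its 6 markers 3 could be tested and none was called in edgeR over the 5 libraries. Its defining marker Prox1 was at 0.161 to 0.278 CPM in Ash1l+/- and 0 to 0.156 CPM in WT. Among markers of other cells, edgeR called over the 5 libraries 4 of 6 for satellite glia higher, 3 of 7 for Schwann cells lower and 0 of 8 for macrophages. It called 2 of 10 sensory neuron markers higher and 3 lower, and 2 of 6 central nervous system markers higher and 2 lower. It called 3 of 6 erythrocyte markers and 1 of 6 tested neutrophil and mast cell markers lower, and 0 of 3 tested skeletal muscle markers. With trends removed, where 2.63% of all genes were called higher and 4.41% lower, the calls were 1 satellite glia marker higher, 2 Schwann cell markers lower and 1 erythrocyte marker lower. For sensory neurons they were then 3 higher and 1 lower, and for the central nervous system 1 higher and 1 lower. For neutrophils and mast cells they were 2 lower, S100a8 and Kit. Kit was at 43.8 to 96.5 CPM, while the mast cell genes Cma1, Cpa3, Mcpt4 and Tpsb2 reached at most 2.99 CPM in any library. Which cells gave the Kit reads was not tested. Flt1 stayed called, 3 fibroblast markers were called lower, and no pericyte, lymphatic, macrophage or muscle marker was called. The part of any of these cells in the Ramp2 and Ramp3 values was not tested.

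The peptides that act on these receptors were next. Calca, which encodes the alpha form of CGRP, was at 971, 1010 and 951 CPM in Ash1l+/- replicates 1, 2 and 3, and at 869, 1540 and 984 CPM in WT replicates 1, 2 and 3. Calcb, the beta form, was at 112, 141 and 125 CPM in Ash1l+/-, against 114, 322 and 129 CPM in WT. Both were highest in WT replicate 2, and their groups overlapped. The log2 fold changes were -0.21 (SE 0.24) for Calca and -0.58 (SE 0.42) for Calcb with 6 libraries, and 0.08 (SE 0.07) and 0.05 (SE 0.09) with 5, with edgeR adjusted p of 0.611 and 0.449, and of 0.488 and 0.749.

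Adrenomedullin, encoded by Adm, was at 1.19, 0.268 and 0.557 CPM in Ash1l+/- replicates 1, 2 and 3, against 0.939, 0.822 and 0.83 CPM in WT. Its log2 fold change was -0.35 (SE 0.56, edgeR adjusted p = 0.712) with 6 libraries and -0.36 (SE 0.52, adjusted p = 0.677) with 5. Adm2, which encodes intermedin, had reads in 1 library only, Ash1l+/- replicate 2, at 0.107 CPM. Of the 5 ligand genes 3 could be tested, and none passed in edgeR with either 6 or 5 libraries.

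The next 6 lists covered the pathway's enzymes, related receptors and signal proteins and, for Crcp, RNA polymerase III. Together with the ligands, 84 of the 91 listed genes in the table could be tested. With 6 libraries edgeR called 0 of them, and 8 passed at an unadjusted p of 0.05. DESeq2 and limma-voom also called 0. With the 5 libraries edgeR called 19 of the 84, 10 higher and 9 lower, where it called 19.8% of all genes. With trends removed it called 5 of the 84, 3 higher and 2 lower, where it called 7.04% of all genes. These counts lie near the share over all genes. The median log2 fold change of the 84 genes was 0.01 with 5 libraries and -0.14 with 6, where the median of all genes tested was 0.

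With 5 libraries edgeR called 9.39% of all genes higher and 10.4% lower. Of 9 genes for making or breaking down the peptides, 3 were called higher and none lower. They were Mme, which encodes the peptidase neprilysin (log2 fold change 0.52, SE 0.10, edgeR adjusted p = 0.00224), the prohormone convertase gene Pcsk1 (0.37, SE 0.08) and Ide, the insulin-degrading enzyme gene (0.32, SE 0.08). Mme was at 32.1, 31.3 and 35.9 CPM in Ash1l+/-, against 23.8, 11.2 and 22.6 CPM in WT. With 6 libraries Mme was at 0.79, Pcsk1 at 0.54 and Ide at 0.36, and with trends removed over 5 at 0.13, 0.14 and 0.15, and none of these passed. Pam, whose enzyme amidates CGRP and adrenomedullin, was at 0.04 (SE 0.08, adjusted p = 0.764).

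Other receptors reported to pair with RAMPs numbered 13, of which 8 could be tested and none passed in edgeR with 5 or 6 libraries. The median log2 fold change was -0.34 with 5 libraries and -0.43 with 6. The other genes, Vipr1, Pth2r, Glp1r, Gcgr and Sctr, were too low to test. Ackr3, a scavenger receptor for adrenomedullin, was at 5.95, 7.83 and 6.51 CPM in Ash1l+/-, against 8.0, 7.62 and 6.48 CPM in WT, and the groups overlapped.

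Downstream, the list of Gs, adenylyl cyclase and cAMP signalling had 1 of 25 genes called higher and 4 lower with 5 libraries. Of all genes 9.39% were called higher and 10.4% lower there. Gnas, which encodes the stimulatory G protein subunit, had the largest difference of the list, at -0.87 (SE 0.13, edgeR adjusted p = 0.000294). It was at 125, 85.0 and 77.6 CPM in Ash1l+/-, against 191, 26.3 and 161 CPM in WT. WT replicate 2 was lowest of all, and with 6 libraries the value was -0.40 (SE 0.67, adjusted p = 0.724). Gnas kept its call with trends removed (-0.73, adjusted p = 0.000504), and its counts are uncertain since antisense transcripts lie in the locus and the kit named does not mark strand. Rapgef3, a cAMP sensor, was at -0.52, the cyclase gene Adcy5 at -0.35, the protein kinase A subunit gene Prkar1b at -0.23 and Creb1, a transcription factor of the pathway, at 0.42. With 6 libraries Rapgef3 was at -0.94, Adcy5 at -0.28, Prkar1b at -0.33 and Creb1 at 0.60. These 4 did not pass with trends removed, while the cyclase gene Adcy9 passed there alone, at 0.31 (adjusted p = 0.0341).

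Of 11 genes for receptor desensitisation and traffic, 1 was called higher and 2 lower with 5 libraries. For all genes the shares were 9.39% higher and 10.4% lower. Rab5a, a GTPase of early endosomes, was at 0.28 (SE 0.08), the receptor kinase gene Grk6 at -0.30 (SE 0.08) and Grk2 at -0.21 (SE 0.07). With 6 libraries Rab5a was at 0.84 (SE 0.97), Grk6 at -0.24 and Grk2 at -0.42. Rab5a was at 4.78 CPM in WT replicate 2, against 120 and 131 CPM in WT replicates 1 and 3. With trends removed none of the 11 passed in edgeR.

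**Figure D5:**
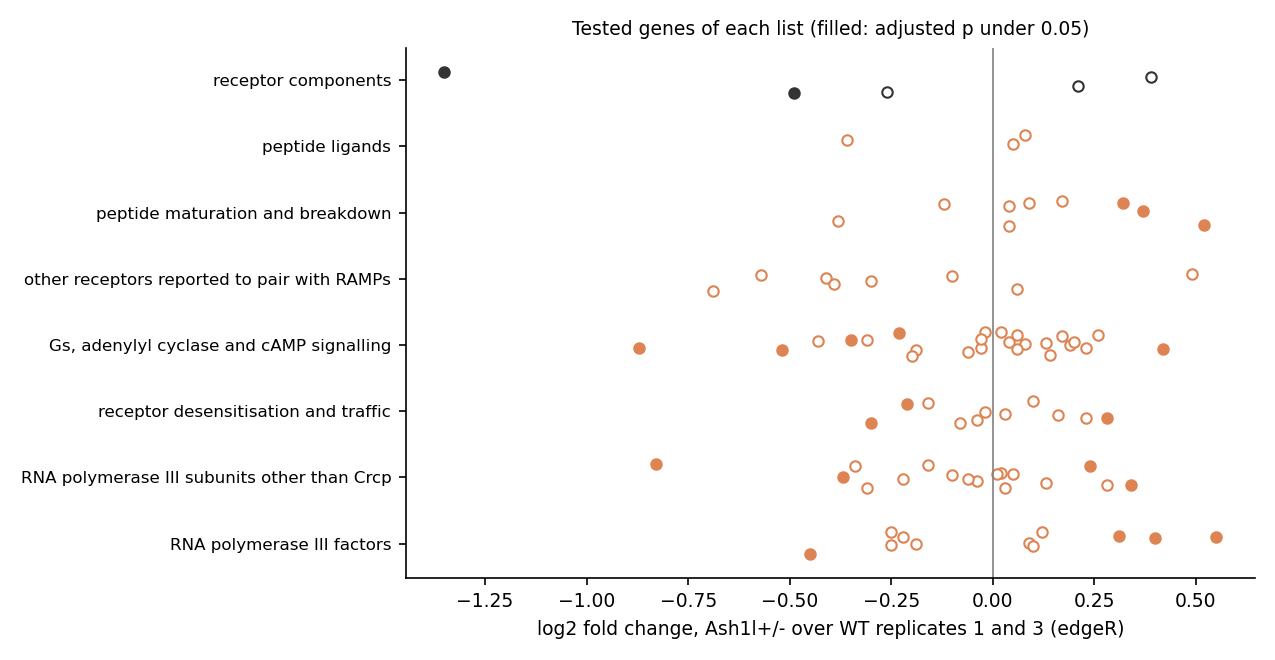
Log2 fold change, Ash1l+/- over WT replicates 1 and 3 (horizontal axis, edgeR with 5 libraries), of the 5 tested receptor components and of the tested genes of 7 lists, 1 point per gene, filled where the adjusted p is under 0.05. Ramp3, at -1.35, lies furthest from 0 among all points, and filled points stand on both sides in 4 of the 7 lists.

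Crcp was set beside the other subunits of RNA polymerase III, the enzyme that makes transfer RNA and other short RNAs. Of 17 subunits 2 were called higher and 2 lower with 5 libraries, at a median log2 fold change of -0.04. Over all genes 9.39% were called higher and 10.4% lower in that fit. Polr3f was at 0.34 (SE 0.11) and Polr3g at 0.24 (SE 0.08). Polr2l, a small subunit common to the 3 nuclear polymerases, was at -0.83 (SE 0.13, edgeR adjusted p = 0.000374), and Polr2f, another common subunit, at -0.37 (SE 0.11). Polr2l was at 19.1, 14.4 and 13.5 CPM in Ash1l+/-, against 28.7, 261 and 27.4 CPM in WT, and WT replicate 2 stood far above. With 6 libraries Polr3f was at 0.55, Polr3g at 0.35, Polr2l at -2.75 and Polr2f at -1.54. With trends removed only Polr2l of the 17 passed, at -0.73 (adjusted p = 0.00146).

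The factors that recruit RNA polymerase III had 3 of 11 called higher and 1 lower with 5 libraries. The shares over all genes were 9.39% and 10.4%. Bdp1, a part of the initiation factor TFIIIB, was at 0.55 (SE 0.09, edgeR adjusted p = 0.000705), and Gtf3c6 and Gtf3c3, parts of TFIIIC, were at 0.40 (SE 0.11) and 0.31 (SE 0.10). Maf1, a repressor of the enzyme, was at -0.45 (SE 0.09). With trends removed Bdp1 (0.29) and Gtf3c6 (0.32) passed and Gtf3c3 (0.10) and Maf1 (-0.21) did not. With 6 libraries Bdp1 was at 0.92, Gtf3c3 at 0.42 and Maf1 at -0.89, none of which passed. Gtf3c6 had the other sign there, at -0.25 (SE 0.42, adjusted p = 0.724), with 64.9 CPM in WT replicate 2 against 22.1 and 26.1 in the other WT libraries.

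The genes whose profile over the 6 libraries was most like each component were found among 13134 protein-coding genes, by the root mean square difference of mean-centred log2 CPM. For Ramp3 these were Igfbp2, Smim4 and Imp3, at 0.257 to 0.273. Igfbp2, which encodes a binding protein of insulin-like growth factors, was at 4.12, 4.45 and 4.06 CPM in Ash1l+/-, against 8.05, 32.4 and 7.62 CPM in WT. Ramp2 was matched more closely by Ntpcr, at 0.053, then by Asb2 and Srprb at 0.087 and 0.094. Calcrl was matched by Iws1, Ufl1 and Ppfibp1, at 0.046 to 0.050, and Crcp by Elovl6, Marf1 and Id2, at 0.020 to 0.031. For Ramp1 the nearest were C2cd4d, Nxnl2 and Adh1, at 0.200 to 0.225. In Ramp1, Ramp2, Ramp3, Calcrl and the genes matched to them, WT replicate 2 lay furthest from the other libraries. The matches of these components thus rest largely on that library.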

How the data were processed

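Bulk RNA-seq libraries of dorsal root ganglia, 3 Ash1l+/- and 3 WT, were grouped by title. Per the labels' protocols, frozen ganglia were extracted with Trizol and libraries made with a NEBNext Ultra RNA kit, which as named does not mark strand. The build was GRCm38 and the tools were HISAT2 2.0.5 and featureCounts 1.5.0-p3, per the submitters' processing notes, with no parameters named. The authors deposited raw counts for 54532 genes and FPKM for the same genes. The FPKM equal counts over length and 1 effective library size per library, which was 0.75 of the total for WT replicate 2 and 1.021 to 1.041 of it elsewhere. Coordinates are those of the count table, and 98.33% of its genes found in GENCODE M21 had the same start and end there. No 2 libraries agreed within sampling noise (lowest chi-square per degree of freedom 3.89).

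After filterByExpr, the 2 genotypes were compared in edgeR 4.0.16 (R 4.3.3) by its quasi-likelihood test. Factors came from the TMM method, the model held genotype alone, and p-values were adjusted by Benjamini-Hochberg over all genes tested, with a threshold of 0.05. SEs are the log2 fold change over the square root of F. GC and length trends were removed with an offset from loess curves (span 0.3) fitted per library to log2 CPM deviations against the GC share of the longest GENCODE M21 transcript, then against gene length, both clipped at the 1 and 99 percentiles. GC was found for 99.9% of tested genes. Alternatives were DESeq2 1.42.0, limma 3.58.1 with voom or on log2(FPKM + 1) and log2(FPKM + 0.1), other scaling and count filters, a replicate block and each library left out. Further fits over the 5 libraries, and the shortened Ramp2 length, were chosen after seeing the data. RAMP shares were compared with exact permutation tests. Scripts were tested on simulated data.

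The 6 genes, the 7 pathway lists and the 12 marker lists were chosen with earlier results of these data known. Named genes were the 6 components, all ligands, up to 4 called genes per list and direction by size of fold over the 5 libraries, and the 3 genes most like each component, of at least 1 mean CPM. Flt1, Rgs5, Prox1, Pam, Ackr3, Adcy9, the too-low receptors and overlapping genes were named after their values were seen. So were Cldn5, Egfl7, Cdh5, Apod, Uchl1, Adcy3, Alas2, Slc4a1, S100a8, Kit and the mast cell genes set beside Kit. Promoter sequences are RefSeq's for GRCm38.p6, given for 4 of the 6 components.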

Additional observations from a re-analysis of the deposited data

How the results depend on the processing

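With all 6 libraries no component passed in edgeR, and the direction of each of the 5 held under each alternative run. Leaving out single libraries gave log2 fold changes of -1.11 to -0.49 for Ramp2 and -2.62 to -1.35 for Ramp3, both called only without WT replicate 2 (adjusted p = 0.0151 and 0.0109). Genes called numbered 0 to 3252 and pathway genes 0 to 19, the highest without WT replicate 2. DESeq2 called 35 genes. Without WT replicate 2 and with GC and length trends removed, 1154 genes and 5 pathway genes were called, and Crcp was called at 0.28 (adjusted p = 0.0304), while Ramp2 at -0.25 (0.29) and Ramp3 at -1.13 (0.0541) were not. Library totals moved the median of all genes by 0.13 and left every component on the same side.

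Within the 5 libraries, leaving out 1 more gave -0.81 to 0.64 for Ramp1, reversed without WT replicate 1, -0.66 to -0.31 for Ramp2, lost without WT replicate 3, and -1.54 to -1.15 for Ramp3, lost without WT replicate 1 or 3. Genes called then ranged from 796 without WT replicate 1 to 4198, with 1855 without Ash1l+/- replicate 2 and 2120 without Ash1l+/- replicate 3. Pathway genes ranged from 5 to 27, with 9 and 11 in those last fits. The cause was not tested.

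The Ramp1 share reversed to -0.147 points by reads in place of FPKM and to -1.13 without WT replicate 3 (range -1.13 to 1.23 with 1 library left out), and was 4.37 points with 1 FPKM added to each gene. The Ramp2 share stayed higher, by 3.08 points with 1 FPKM added to 15.9 without WT replicate 3. The Ramp3 share stayed lower, by -15.6 points without WT replicate 1 to -7.26 by reads.

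Same-numbered libraries did not deviate together (r = -0.006, -0.035 and 0.063 across genes). WT replicate 2 stood far from the other WT libraries and weighed on every WT deviation. This check therefore cannot tell whether the numbers pair the libraries. With the replicate block the log2 fold changes were -0.83 for Ramp1, -0.81 for Ramp2, -2.02 for Ramp3, 0.72 for Calcrl and 0.16 for Crcp, and with the block and trends removed -0.65, -0.42, -1.51, 0.21 and 0.40. No gene passed in either. Ramp1 was not tested where 1 CPM in 3 libraries was required, and DESeq2 set no adjusted p for Ramp1 and Ramp3 over the 5 libraries. Ramp1 rested on 9 to 43 reads a library and Ramp3 on 12 to 112.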
